A study of Mus musculus with 28 samples.

Results

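A set of 10 genes that mark hepatocytes around the central vein of the liver lobule, or that respond to Wnt signalling in the liver, was followed in 2 mouse models of non-alcoholic steatohepatitis (NASH). They were chosen by symbol, as Glul, Rhbg, Slc1a2, Oat, Cyp2e1, Cyp1a2, Axin2, Lgr5, Rnf43 and Tbx3, and make up 10 of the 20416 genes in each of the 3 deposited tables. All 10 were present in every table and all 10 passed the filter on low values in every comparison.

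Wnt ligands and R-spondins made by endothelial cells of the central vein act on neighbouring hepatocytes through Frizzled, LRP and LGR receptors, which stabilises beta-catenin and turns on a pericentral programme. That programme includes glutamine synthesis, which captures ammonia that escaped the periportal urea cycle, and several cytochrome P450 enzymes. Some Wnt targets feed back on the pathway. Axin2 belongs to the complex that degrades beta-catenin, Rnf43 is a ubiquitin ligase that removes Frizzled receptors, and Lgr5 is an R-spondin receptor that holds Rnf43 and Znrf3 in check.

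Liver tissue of male C57BL/6 mice was profiled by poly(A) RNA sequencing in 28 libraries, and the labels name no transgene or mutant allele. The diet model compared 4 livers of mice on a methionine- and choline-deficient diet (MCD) with 4 on its matched low-fat control diet (CD). Titles and the study design give 4 weeks for these libraries, whereas the study-duration label gives 5. The STAM model combined streptozotocin, a toxin of pancreatic beta cells, given at postnatal day 2 with a high-fat diet from week 4 onwards, and 5 STAM livers were set against 5 livers of mice labelled as on control diet (Ctrl) at 4 weeks of age and again at 10 weeks. Labels name the high-fat diet for STAM libraries of both ages. Whether each replicate came from a separate mouse is not stated in the labels, and a p-value here reflects the spread among libraries, which may be technical.

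Each library held 16184576 to 25911864 reads assigned to genes, and no replicate pair agreed within sampling noise. Values are the deposited log2 CPM, the log2 of a gene's reads relative to the library's scaled total, compared within each table by limma with Benjamini-Hochberg adjustment, and a gene was called changed at an adjusted p under 0.05. Fold changes are on that log2 scale unless a fold is named. The scaling matters for direction: dividing by total reads instead of the authors' scaled library sizes moved the median of all genes by 0.42 in MCD, 0.08 in STAM at 4 weeks and 0.29 in STAM at 10 weeks. Under that scaling 86.1% of called genes were higher in MCD (52.9% as deposited), and in STAM 83.7% (66.6%) at 4 weeks and 88% (53%) at 10 weeks. Single libraries stood apart for some members. They were control replicate 1 (Tbx3, Axin2) and STAM replicate 1 (Rnf43) at 4 weeks, CD replicate 4 (Rnf43, Tbx3, Axin2) and STAM replicate 5 at 10 weeks (Rhbg, Slc1a2, Oat). The value without that library is given for these members in its own comparison. For Rhbg at 10 weeks and Rnf43 at 4 weeks the range over single libraries left out is given instead.

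Defining hepatocyte markers were present in every group, none of 10 at 0, and their summed level was lower in STAM than in controls at both ages. In the diet experiment the ranges overlapped, at 113000 to 135000 CPM in CD (median 119000) and 94400 to 122000 in MCD (median 118000). At 4 weeks the sum ran from 165000 to 186000 in controls and 142000 to 154000 in STAM. At 10 weeks it ran from 114000 to 132000 in controls and 63100 to 81200 in STAM. Alb, at a mean of 16.79 log2 CPM in 4-week controls, weighs most in this sum. At 4 weeks only 2 of the 10 markers were called lower, Alb (-0.34) and Fgb (-0.39). The 4-week call of Alb was lost by total reads and after quantile normalization. The summed macrophage markers were higher in each disease group without overlap, from 536 to 815 CPM in CD and 916 to 1530 in MCD, 480 to 639 and 761 to 984 at 4 weeks, and 523 to 695 and 797 to 1040 at 10 weeks. In whole tissue, fewer cells of a type and less RNA per cell cannot be told apart. The part of these shifts in the results on single genes was not tested.

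Per kilobase of counted length, Cyp2e1 was the most abundant member in all 6 groups, at 4930 ± 611 CPM per kb in 10-week controls (SD, n = 5). Below it in those controls came Cyp1a2 at 348, Oat at 315 and Glul at 313 CPM per kb, whose ranges over libraries overlapped, then Slc1a2 at 20.3, Rnf43 at 9.87 and Tbx3 at 7.6. The lowest were Lgr5 at 3.17, Rhbg at 3.1 and Axin2 at 2.03 CPM per kb, again with neighbours overlapping. In 10-week STAM livers the order changed in 2 places: Cyp1a2, at 81.2 CPM per kb, lay below Oat (429) and Glul (414) without overlap, and Lgr5, at 1.19, lay below every other member. The plot of levels by library shows the same values on the log2 scale.

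**Figure D1:**
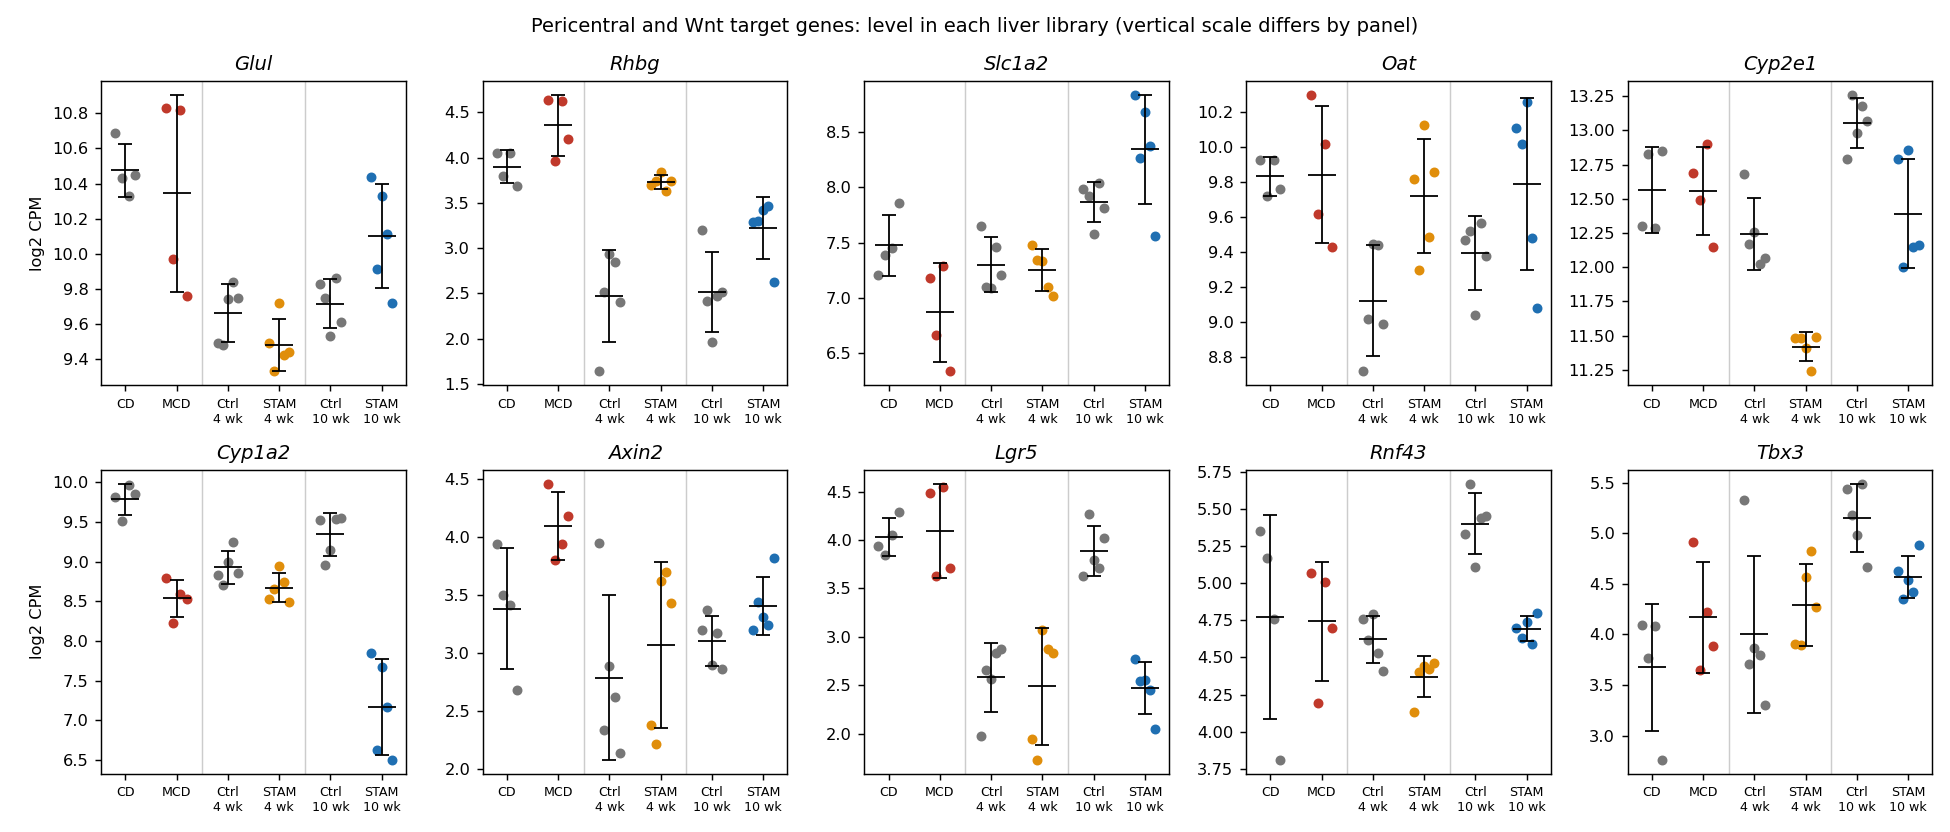
Level of each of the 10 genes in every library (log2 CPM, vertical axis, whose range differs between panels) in the 6 groups; dots are libraries and bars the mean ± SD. Cyp1a2 lies lower in MCD and in 10-week STAM than in their controls, and Rhbg lies higher in 4-week STAM than in any control of that age.

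In MCD livers 4 of the 10 genes were called, 2 higher and 2 lower, where 42.7% of the 15312 genes tested were called. For 1 of them, Cyp1a2, the groups did not overlap, against 40.1% of all genes tested. At 4 weeks STAM livers had 1 member higher and 1 lower, both without overlap, where 9.8% of genes were called and 10.1% did not overlap. At 10 weeks 2 were higher and 5 lower, 3 without overlap, where 47.8% were called and 33.1% did not overlap. The members' median changes of 0, -0.07 and -0.14 stood beside 0.07, 0.01 and 0.05 over all genes tested. The split of directions moved with scaling. By total reads it was 6 higher and 1 lower in MCD, 2 and 1 at 4 weeks and 5 and 3 at 10 weeks, and after quantile normalization 5 and 1, 2 and 1, and 3 and 4. Members of both directions were thus called in each comparison under all 3 scalings, as the plot of changes shows for the deposited one.

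**Figure D2:**
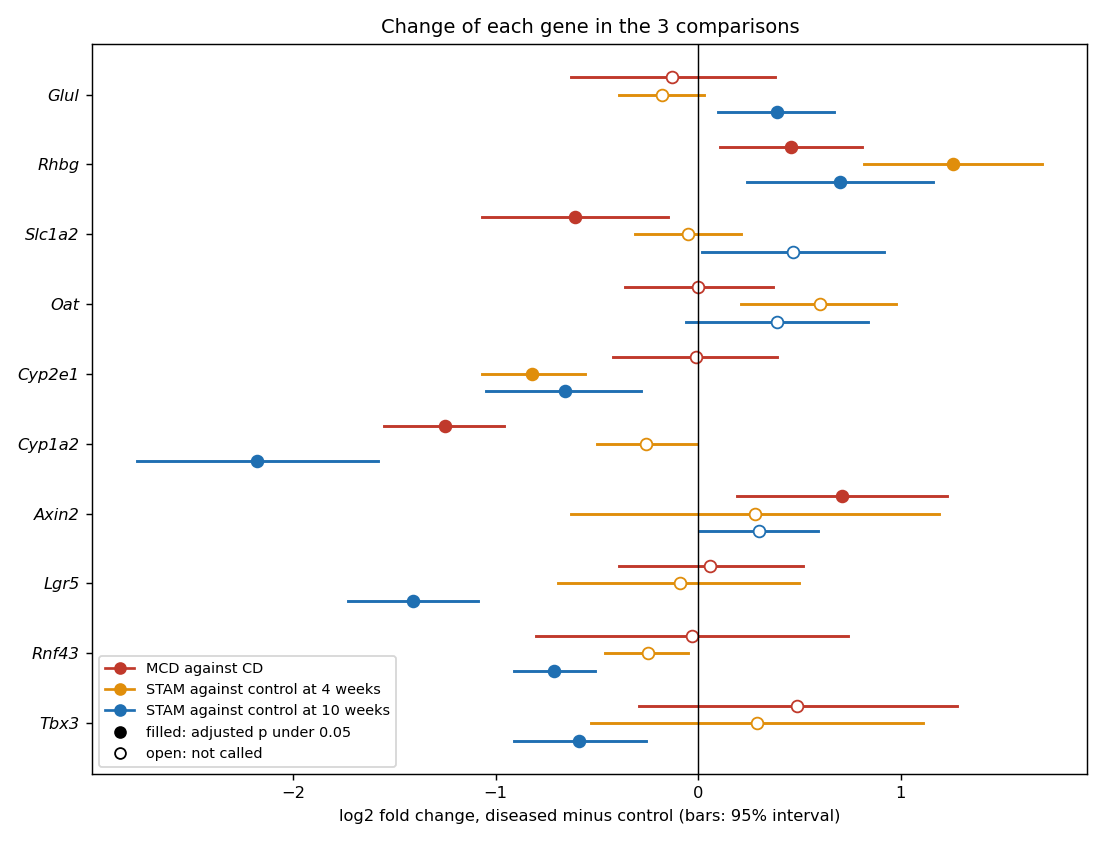
Change of each gene (log2 fold change, disease minus control) with its 95% interval in the 3 comparisons; filled symbols passed the adjusted p of 0.05. Rhbg lies above 0 and is filled in all 3 comparisons, while Cyp1a2 reaches -2.18 and Lgr5 -1.41 in 10-week STAM.

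Among the genes of glutamine and ammonia handling, Rhbg was called higher in all 3 comparisons, by 0.46 to 1.26. Glul was called higher in 10-week STAM alone, Slc1a2 was called lower in MCD alone, and Oat passed in none. Rhbg encodes an ammonium channel of the hepatocyte membrane, and its gene spans chr3:88242874-88254684 on the minus strand (mm10, NM_021375, protein coding as are all members). In 4-week controls it measured 1.64, 2.52, 2.93, 2.85 and 2.41 log2 CPM and in STAM 3.7, 3.74, 3.84, 3.63 and 3.74. Every STAM library lay above every control. The rise was 1.26 ± 0.20 (SE; 95% interval 0.82 to 1.7, limma adjusted p = 0.00206), or 2.4-fold, and without control replicate 1 it was 1.05 (limma adjusted p = 0.000146).

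At 10 weeks the controls held Rhbg at 3.2, 2.42, 1.96, 2.47 and 2.52 log2 CPM and STAM at 3.29, 3.3, 3.42, 3.47 and 2.62. STAM replicate 5 alone reached into the control range. The rise was 0.70 ± 0.21 (SE; limma adjusted p = 0.0156), or 1.63-fold. With 1 library left out it ran from 0.56 to 0.87 and stayed called. It was 0.49 (limma adjusted p = 0.0887) after quantile normalization, and the adjusted p ran from 0.000965 to 0.0887 over the alternatives.

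In the diet experiment Rhbg stood at 4.05, 3.8, 4.05 and 3.69 log2 CPM in CD and 4.64, 3.96, 4.63 and 4.2 in MCD, with MCD replicate 2 inside the CD range. It rose by 0.46 ± 0.16 (SE; 95% interval 0.11 to 0.81, limma adjusted p = 0.0373). That call was lost under 6 of 16 alternatives, among them leaving out CD replicate 4 (0.39, limma adjusted p = 0.0894), and the adjusted p ran from 0.000828 to 0.132.

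Glul encodes glutamine synthetase, which joins ammonia to glutamate and in the liver marks the hepatocytes next to the central vein (chr1:153899929-153909723, plus strand, NM_008131). In CD it measured 10.69, 10.43, 10.33 and 10.45 log2 CPM and in MCD 10.83, 9.97, 10.82 and 9.76. The MCD livers split on both sides of CD, replicates 1 and 3 above all 4 controls and replicates 2 and 4 below them, and the difference was -0.13 (95% interval -0.63 to 0.38, limma adjusted p = 0.683). Its sign depended on scaling, at 0.30 by total reads and 0.54 after quantile normalization.

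At 4 weeks Glul was 9.49, 9.48, 9.74, 9.84 and 9.75 in controls and 9.49, 9.33, 9.72, 9.42 and 9.44 log2 CPM in STAM, overlapping, with a difference of -0.18 (95% interval -0.39 to 0.03, limma adjusted p = 0.3). At 10 weeks the controls held 9.83, 9.75, 9.53, 9.86 and 9.61 and STAM 10.44, 9.91, 10.33, 10.11 and 9.72. All STAM livers but replicate 5 lay above every control. The rise was 0.39 ± 0.13 (SE; 95% interval 0.1 to 0.67, limma adjusted p = 0.0277), or 1.31-fold. It was lost in turn without control replicates 3 or 5 or STAM replicates 1, 3 or 4 (adjusted p 0.0502 to 0.0717 in limma), and over all 18 alternatives the change ran from 0.3 to 0.68 and the adjusted p from 0.000199 to 0.0793.

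Slc1a2 encodes a sodium-dependent glutamate carrier, which in the liver is found in the same perivenous cells (chr2:102658683-102790784, plus strand, NM_001077514). It measured 7.21, 7.39, 7.45 and 7.86 log2 CPM in CD and 7.18, 6.67, 7.29 and 6.34 in MCD. Replicates 2 and 4, the MCD livers with less Glul, were also the lowest here. The fall of 0.61 on the log2 scale (SE 0.21, 95% interval -1.07 to -0.15, limma adjusted p = 0.0364), or 1.52-fold lower, was lost under 10 of 16 alternatives, with -0.18 by total reads (limma adjusted p = 0.399) and -0.48 without CD replicate 4 (limma adjusted p = 0.0916), and the adjusted p ran from 0.0131 to 0.399.

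At 4 weeks Slc1a2 was 7.65, 7.1, 7.09, 7.46 and 7.21 in controls and 7.48, 7.34, 7.33, 7.1 and 7.02 log2 CPM in STAM, with overlapping ranges. The difference was -0.05 (95% interval -0.31 to 0.21, limma adjusted p = 0.863), and 0.03 by total reads. At 10 weeks Slc1a2 was 7.98, 7.92, 7.58, 8.04 and 7.81 in controls and 8.83, 8.26, 8.68, 8.37 and 7.56 in STAM. STAM replicates 1 to 4 lay above all controls and replicate 5 below them. The difference of 0.47 (95% interval 0.02 to 0.92) missed the threshold (limma adjusted p = 0.0789), and without STAM replicate 5 it was 0.67 (limma adjusted p = 0.00104). It passed under both other scalings, at 0.76 by total reads (limma adjusted p = 0.0043) and 0.72 after quantile normalization (limma adjusted p = 0.0058), in a range of adjusted p from 0.00104 to 0.171.

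Oat encodes ornithine aminotransferase, which turns ornithine into glutamate semialdehyde (chr7:132557475-132576398, minus strand, NM_016978). It measured 9.93, 9.72, 9.93 and 9.76 log2 CPM in CD and 10.3, 9.62, 10.02 and 9.43 in MCD, again with replicates 1 and 3 above and 2 and 4 below the CD range, and the difference was 0 (95% interval -0.36 to 0.37, limma adjusted p = 0.991). Total-read scaling gave 0.43 (limma adjusted p = 0.0356) and quantile normalization 0.70 (limma adjusted p = 0.00331).

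At 4 weeks Oat was 8.72, 9.02, 9.45, 9.44 and 8.99 in controls and 9.82, 9.3, 10.13, 9.49 and 9.86 log2 CPM in STAM. Of the 5 STAM livers only replicate 2 fell within the control range. The difference of 0.60 ± 0.18 (SE; 95% interval 0.21 to 0.98) lay just beyond the threshold (limma adjusted p = 0.0555) and passed under 5 of 18 alternatives, with adjusted p from 0.0281 to 0.152. At 10 weeks controls held 9.47, 9.52, 9.04, 9.57 and 9.38 and STAM 10.11, 10.02, 10.26, 9.48 and 9.08. STAM replicates 4 and 5 lay inside the control range, and the difference was 0.39 (95% interval -0.06 to 0.84, limma adjusted p = 0.135), or 0.57 without replicate 5 (limma adjusted p = 0.00938). By total reads it was 0.68 (limma adjusted p = 0.00948) and after quantile normalization 0.68 (limma adjusted p = 0.00711), in a range from 0.00711 to 0.278.

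The authors' deposited table gave a change of 0.60 for Oat at 4 weeks with an adjusted p of 0.0109, and at 10 weeks 0.53 for Slc1a2 (0.0124) and 0.44 for Oat (0.0467). The authors' deposited table had 4, 3 and 9 members with an adjusted p under 0.05 in MCD, STAM at 4 weeks and STAM at 10 weeks.

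The promoters of the cytochrome P450 genes, each called lower in 2 of the 3 comparisons, are shown beside that of Glul, which was called lower in none. Each is the 250 bases before the RefSeq start (GRCm38.p6), 5′ to 3′ on the gene's strand. Capitals mark matches to CTTTGA (a core of the T-cell factor motif through which beta-catenin acts, searched as CTTTGA and TCAAAG) and to TATAAA (searched as TATAAA and TTTATA). No match overlaps another.
Cyp1a2 (chr9:57683656-57683905, minus strand): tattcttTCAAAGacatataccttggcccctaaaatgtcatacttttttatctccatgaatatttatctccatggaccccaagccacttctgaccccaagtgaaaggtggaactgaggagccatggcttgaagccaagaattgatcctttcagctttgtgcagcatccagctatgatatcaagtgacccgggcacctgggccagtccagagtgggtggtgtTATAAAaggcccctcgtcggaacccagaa
Cyp2e1 (chr7:140763569-140763818, plus strand): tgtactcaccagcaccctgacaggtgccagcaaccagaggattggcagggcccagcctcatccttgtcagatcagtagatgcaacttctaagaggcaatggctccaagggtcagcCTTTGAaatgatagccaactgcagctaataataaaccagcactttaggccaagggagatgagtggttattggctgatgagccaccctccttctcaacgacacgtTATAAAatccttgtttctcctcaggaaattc
Glul (chr1:153899679-153899928, plus strand): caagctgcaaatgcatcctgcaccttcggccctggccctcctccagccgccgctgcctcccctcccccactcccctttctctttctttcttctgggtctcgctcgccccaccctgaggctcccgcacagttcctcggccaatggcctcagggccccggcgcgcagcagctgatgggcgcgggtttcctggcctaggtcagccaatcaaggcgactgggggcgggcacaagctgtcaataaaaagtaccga
Cyp1a2 held TCAAAG 237 bases before the start and TATAAA 23 bases before it. In Cyp2e1 they lay 129 and 25 bases before the start. Of the 7 members with an entry in the promoter table, 3 (Cyp2e1, Cyp1a2 and Slc1a2) held CTTTGA on either strand, where 14.0% of 27025 promoters did, and 2 held TATAAA, where 13.0% did. The Slc1a2 entry (chr2:102706188-102706437) lies inside the gene span given above, not before its start. Glul, Oat, Axin2 and Rnf43 held no match to CTTTGA or TATAAA. Of these, Rnf43 was called lower in the older STAM livers, and the others were called lower in no comparison. Slc1a2 was called lower in MCD alone, and in the older STAM livers its estimate was above controls but not called. Such a match is a run of letters, not a measured binding site. Whether a match goes with the direction of a change was not tested.

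Cyp1a2 was called lower in MCD and in 10-week STAM, and Cyp2e1 in STAM at both ages. Cyp1a2 encodes the enzyme that oxidises caffeine and aromatic amines (chr9:57676937-57683655, minus strand, NM_009993). It measured 9.82, 9.51, 9.97 and 9.85 log2 CPM in CD and 8.79, 8.23, 8.59 and 8.53 in MCD. All MCD livers lay below all CD livers. The fall was 1.25 on the log2 scale (SE 0.14, 95% interval -1.55 to -0.96, limma adjusted p = 1.52e-05), or 2.38-fold lower. The call held under all 16 alternatives, at -0.62 to -1.35.

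At 4 weeks Cyp1a2 was 8.83, 8.7, 9, 9.25 and 8.86 in controls and 8.53, 8.66, 8.94, 8.74 and 8.49 log2 CPM in STAM, overlapping, with a difference of -0.26 (95% interval -0.5 to -0.01, limma adjusted p = 0.184). At 10 weeks controls held 9.52, 8.96, 9.14, 9.54 and 9.55 and STAM 7.85, 6.63, 7.67, 7.17 and 6.5. The groups lay more than a log2 unit apart at their nearest libraries. The mean went from 9.34 ± 0.27 to 7.16 ± 0.61 (SD, n = 5), and the fall was 2.18 on the log2 scale (SE 0.27, limma adjusted p = 0.000125), or 4.52-fold lower, the largest change of any member in any of the 3 comparisons.

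Cyp2e1 encodes the P450 that oxidises ethanol and acetone (chr7:140763832-140774977, plus strand, NM_021282). It measured 12.3, 12.83, 12.29 and 12.85 log2 CPM in CD and 12.69, 12.49, 12.9 and 12.15 in MCD, with the ranges nearly the same and a difference of -0.01 (95% interval -0.42 to 0.39, limma adjusted p = 0.965). This value also turned with scaling, to 0.41 by total reads and 0.87 after quantile normalization. At 4 weeks controls held 12.68, 12.17, 12.26, 12.02 and 12.07 and STAM 11.48, 11.48, 11.41, 11.24 and 11.49. No STAM liver reached the lowest control, and the fall was 0.82 on the log2 scale (SE 0.12, limma adjusted p = 0.00102), or 1.76-fold lower. Without control replicate 1, the highest, the change was -0.71 (limma adjusted p = 0.000164).

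At 10 weeks Cyp2e1 was 12.79, 13.26, 12.98, 13.18 and 13.07 in controls and 12.79, 12, 12.86, 12.15 and 12.16 log2 CPM in STAM. STAM replicates 1 and 3 reached the level of the lowest control and the other 3 lay below. The fall was 0.66 on the log2 scale (SE 0.18, 95% interval -1.05 to -0.28, limma adjusted p = 0.00766), or 1.58-fold lower. It missed the threshold under both other scalings, at -0.37 by total reads (limma adjusted p = 0.0584) and -0.14 after quantile normalization (limma adjusted p = 0.556), and the adjusted p ran from 0.00257 to 0.556.

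The Wnt target genes did not move as a block. Axin2 was called higher in MCD, and Lgr5, Rnf43 and Tbx3 were called lower in 10-week STAM, while none of the 4 was called at 4 weeks. Lgr5 marks pericentral hepatocytes in the healthy liver (chr10:115450314-115587780, minus strand, NM_010195). At 10 weeks it measured 3.63, 4.27, 3.79, 3.71 and 4.02 log2 CPM in controls and 2.77, 2.54, 2.55, 2.45 and 2.05 in STAM. Every STAM liver lay below every control. The fall was 1.41 on the log2 scale (SE 0.15, 95% interval -1.73 to -1.09, limma adjusted p = 1.01e-05), or 2.66-fold lower, and the call held under all 18 alternatives, at -1.12 to -1.59.

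At 4 weeks Lgr5 was 1.98, 2.66, 2.57, 2.83 and 2.87 in controls and 1.95, 1.73, 3.07, 2.87 and 2.83 log2 CPM in STAM, a difference of -0.09 (95% interval -0.69 to 0.5, limma adjusted p = 0.883). The 4-week controls thus held as little Lgr5 as the 10-week STAM livers, though those values come from separate tables and were not tested against each other. In CD it measured 3.94, 3.84, 4.05 and 4.29 and in MCD 4.48, 3.63, 4.55 and 3.71, with MCD replicates 1 and 3 above and 2 and 4 below the CD range and a difference of 0.06 (95% interval -0.39 to 0.52, limma adjusted p = 0.828), or 0.49 by total reads (limma adjusted p = 0.0499).

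Rnf43 (chr11:87663087-87735539, plus strand, NM_172448) measured 5.33, 5.67, 5.11, 5.44 and 5.45 log2 CPM in 10-week controls and 4.7, 4.63, 4.74, 4.59 and 4.8 in STAM. The groups did not overlap and the STAM livers lay close together. The fall was 0.71 on the log2 scale (SE 0.09, limma adjusted p = 4.53e-05), or 1.64-fold lower, and it held under all 18 alternatives, at -0.42 to -0.78. At 4 weeks controls held 4.76, 4.62, 4.79, 4.53 and 4.41 and STAM 4.13, 4.4, 4.44, 4.42 and 4.46, a difference of -0.25 (95% interval -0.46 to -0.05) that missed the threshold (limma adjusted p = 0.118). With 1 library left out it ran from -0.31 to -0.19 and was never called.

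The diet groups overlapped for Rnf43, at 5.35, 5.17, 4.76 and 3.81 log2 CPM in CD and 5.07, 4.19, 5.01 and 4.7 in MCD. CD replicate 4 was the lowest of all 8. The difference was -0.03 (95% interval -0.8 to 0.74, limma adjusted p = 0.953) and -0.35 without that library (limma adjusted p = 0.219), and it was 0.39 by total reads.

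Tbx3, a T-box transcription factor (chr5:119670862-119684724, plus strand, NM_198052), measured 5.44, 5.18, 4.98, 5.49 and 4.67 log2 CPM in 10-week controls and 4.63, 4.35, 4.54, 4.42 and 4.88 in STAM. STAM replicate 5 alone lay above the lowest control. The fall was 0.59 on the log2 scale (SE 0.15, 95% interval -0.91 to -0.26, limma adjusted p = 0.00687), or 1.5-fold lower, and by total reads it was -0.29 (limma adjusted p = 0.109). The adjusted p ran from 0.000811 to 0.109 over the alternatives.

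At 4 weeks Tbx3 was 5.33, 3.71, 3.87, 3.8 and 3.3 in controls and 3.91, 3.9, 4.57, 4.82 and 4.27 log2 CPM in STAM. Control replicate 1 lay above all STAM livers and the other 4 controls below them. The difference was 0.29 (95% interval -0.53 to 1.11, limma adjusted p = 0.705) with that library and 0.62 (limma adjusted p = 0.0688) without it. In the diet experiment it was 4.09, 3.77, 4.08 and 2.76 in CD and 4.91, 3.65, 4.22 and 3.89 in MCD, overlapping, a difference of 0.49 (95% interval -0.29 to 1.28, limma adjusted p = 0.28), or 0.19 without CD replicate 4 (limma adjusted p = 0.592) and 0.92 by total reads (limma adjusted p = 0.0456).

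Axin2 (chr11:108920349-108950781, plus strand, NM_015732), the general feedback target of the pathway, measured 3.94, 3.5, 3.41 and 2.68 log2 CPM in CD and 4.46, 3.8, 3.94 and 4.18 in MCD. CD replicate 1 lay within the MCD range and the other 3 CD livers below it. It rose by 0.71 ± 0.24 (SE; 95% interval 0.19 to 1.23, limma adjusted p = 0.0303), or 1.64-fold. Without CD replicate 4, the lowest, the change was 0.48 (limma adjusted p = 0.0517). The call was lost under 6 of 16 alternatives, with adjusted p from 0.00284 to 0.134.

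In STAM, Axin2 was 3.95, 2.34, 2.89, 2.62 and 2.14 log2 CPM in 4-week controls and 2.38, 2.22, 3.62, 3.7 and 3.43 in STAM, with the groups overlapping widely and a difference of 0.28 (95% interval -0.63 to 1.19, limma adjusted p = 0.752). Control replicate 1 was again the highest of its group, and without it the difference was 0.57 (limma adjusted p = 0.332). At 10 weeks controls held 3.2, 3.37, 2.9, 3.17 and 2.86 and STAM 3.2, 3.44, 3.31, 3.24 and 3.82. The difference of 0.30 (95% interval 0.01 to 0.59) missed the threshold (limma adjusted p = 0.0829) and was 0.59 by total reads (limma adjusted p = 0.00427). So in the 10-week livers, where Lgr5, Rnf43 and Tbx3 were called lower, the estimate for Axin2 lay above 0.

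Whether a change differed between ages or models was tested as a difference of 2 effects in 1 fit of 4 groups. The STAM effect at 10 weeks differed from that at 4 weeks for 4 of the 10 members, where 20% of 15022 genes were called, 8.89% higher and 11.2% lower. For 3 of them the effect was lower at 10 weeks. Cyp1a2 differed by -1.92 (95% interval -2.55 to -1.29, limma adjusted p = 0.000312), Lgr5 by -1.32 (-2 to -0.64, limma adjusted p = 0.00776) and Rnf43 by -0.46 (-0.74 to -0.18, limma adjusted p = 0.02). Glul went the other way, by 0.56 (0.21 to 0.92, limma adjusted p = 0.0236). For Cyp2e1, lower at both ages, the difference was 0.15 (-0.31 to 0.61, limma adjusted p = 0.664), and for Rhbg, higher at both, -0.56 (-1.21 to 0.1, limma adjusted p = 0.221).

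Control replicate 1 at 4 weeks also decided the age difference of Tbx3, which was -0.88 with it (95% interval -1.74 to -0.01, limma adjusted p = 0.142) and -1.21 without it (limma adjusted p = 0.00326, in a range from 0.00326 to 0.251 over the alternatives). The call for Rnf43 was lost by total reads (-0.24, limma adjusted p = 0.218) and after quantile normalization (-0.38, limma adjusted p = 0.0508), with adjusted p from 0.00676 to 0.218.

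Set against 10-week STAM, the MCD effect differed for 4 members, where 27.9% of 14986 genes were called, 12.9% higher and 15% lower. It was higher for Lgr5 by 1.47 (95% interval 0.91 to 2.03, limma adjusted p = 0.000378), for Tbx3 by 1.08 (0.26 to 1.9, limma adjusted p = 0.0483) and for Cyp1a2 by 0.92 (limma adjusted p = 0.046), and lower for Slc1a2 (-1.08, limma adjusted p = 0.0193). The Lgr5 and Slc1a2 differences held under all 26 alternatives, and those of Tbx3 and Cyp1a2 under 10 each, the adjusted p reaching 0.0961 and 0.0943. Cyp1a2 was thus called lower in MCD and in 10-week STAM, and the estimated fall was smaller in MCD than in 10-week STAM. In 4-week STAM Cyp1a2 was not called.

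Against 4-week STAM, 3 members differed, where 26.1% of 14962 genes were called, 11.7% higher and 14.4% lower. The MCD effect was lower for Cyp1a2 (-1, limma adjusted p = 0.000369) and Rhbg (-0.8, limma adjusted p = 0.0426) and higher for Cyp2e1 (0.81, limma adjusted p = 0.0115). The Cyp2e1 difference held under all 26 alternatives. That of Cyp1a2 was lost under quantile normalization alone (-0.4, limma adjusted p = 0.144), and that of Rhbg held under 11 of 26, with adjusted p from 0.019 to 0.226.

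**Figure D3:**
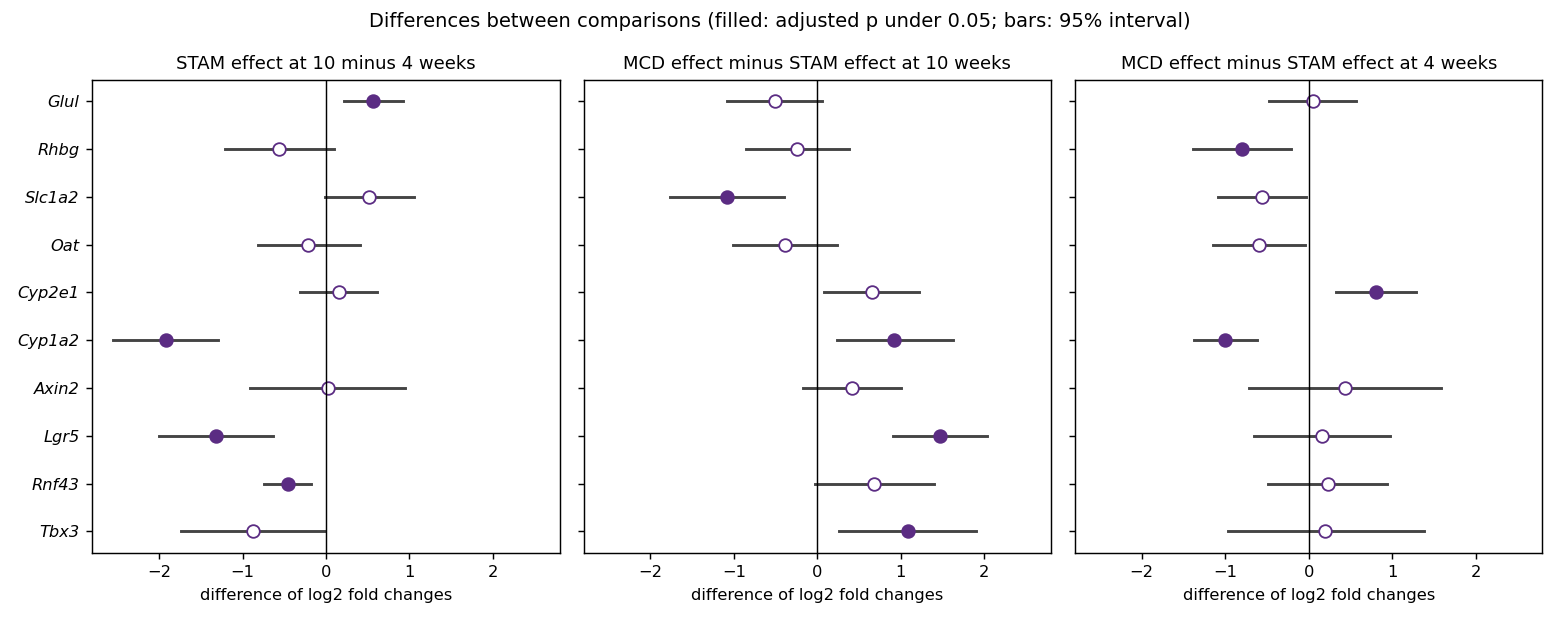
Difference between the effects of 2 comparisons for each gene (log2, first minus second, with 95% interval) in 3 panels: STAM at 10 against 4 weeks, MCD against 10-week STAM, and MCD against 4-week STAM; filled symbols passed the adjusted p of 0.05. Lgr5 lies at -1.32 in the first panel and 1.47 in the second.

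In a few libraries nearly all members lay on one side of their group mean, as the heat map of libraries shows. In MCD replicate 1 all 10 members lay above their group mean and in replicate 3 it was 9, while in replicate 2 it was 0 and in replicate 4 it was 1. Over all genes tested those shares were 51.9%, 50.7%, 50.6% and 50.1%. Among controls at 10 weeks, replicate 3 had none of the 10 above the mean (48.6% of all genes). The STAM livers ranged from 4 to 9 members above at 4 weeks and from 3 to 9 at 10 weeks. Members share a library here and are not independent points.

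**Figure D4:**
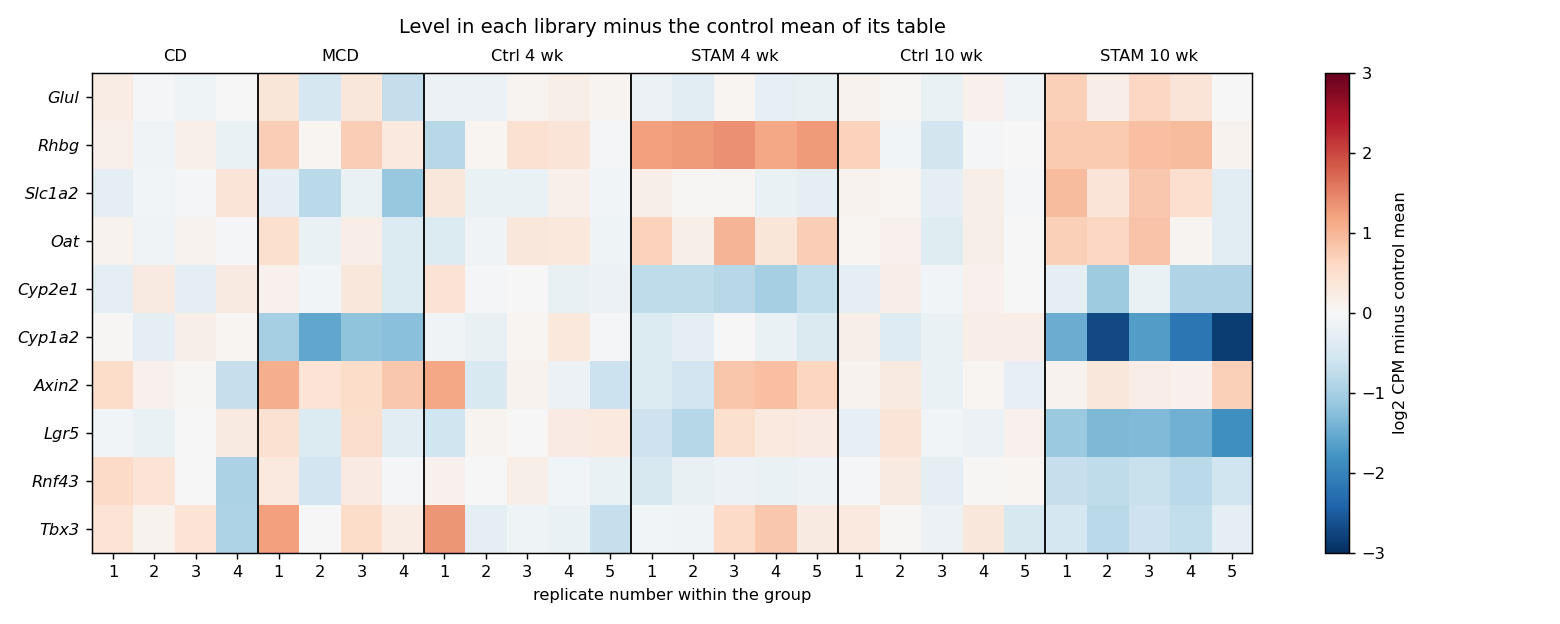
Level of the 10 genes in each of 28 libraries as log2 CPM minus the mean of the control group of the same table (colour), with libraries in columns by group. Cyp1a2 is below its control mean in every MCD and every 10-week STAM library, and MCD replicates 1 and 3 differ from replicates 2 and 4 for Glul, Oat and Lgr5.

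The genes whose levels ran most like 4 of the members were ranked by Pearson's r over the 28 libraries among 14848 genes tested in all tables. These are descriptions, since libraries share groups and depth. After centring on the control group, Cyp1a2 was most like Sdr9c7 (r = 0.95), Cfb and Cyp2c70 (0.94), and Slc9a3r1 and Stk38 (0.93). Cyp2e1 was closest to Fbxw2 (0.84), Ptdss1 (0.82), Ing2 (0.81), Zfp275 and D630039A03Rik (0.8). Glul was closest to another member, Slc1a2 (0.73), then Chic1 (0.71), Rfx4 and Enox2 (0.69) and 1700030K09Rik (0.67). Axin2 also led with a member, Tbx3 (0.71), before Tnrc6a, Rbpms and Midn (0.7) and Tnpo2 (0.69).

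Centring each library on its own group, which removes the differences between groups, left the pair of Axin2 and Tbx3 on top (r = 0.86), followed for Axin2 by Amer1 (0.8), Bace1 (0.78), Hdac5 (0.77) and Pcdh1 (0.74). Glul then ran closest to Cyp4f14 (0.83), G630090E17Rik (0.82), Ugt3a1 and P2ry4 (0.8) and Rtp3 (0.79), with Oat at rank 11 (0.76) and Slc1a2 at rank 49 (0.69). Cyp2e1 ran with Acsm3 (0.88), Pon1 (0.87), Apoh (0.86), Azgp1 (0.85) and Rufy3 (0.84). For Cyp1a2 the nearest were Chac2 (0.71), Ugt1a6b (0.7), Apol9b and C4a (0.68) and Enpep (0.67). Axin2 and Tbx3 both lay far from their group means in control replicate 1 at 4 weeks (1.16 and 1.33) and CD replicate 4 (-0.7 and -0.92). Their r without these libraries was not computed in either ranking.

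Other genes of the zonation and Wnt programmes were counted in lists chosen with earlier results of these data known, each beside the share of all genes called in that direction (22.6% higher and 20.1% lower in MCD, 6.52% and 3.27% in STAM at 4 weeks, 25.3% and 22.5% at 10 weeks). Of 20 other pericentral hepatocyte genes, 11 fell and 2 rose in 10-week STAM, with a median of -0.74. Among those that fell were the P450 enzymes Cyp2c29 (-4.02, 16.2-fold lower, limma adjusted p = 1.64e-06), Cyp2c54 (-2.84) and Cyp2c37 (-2.45). The 2 that rose were the dicarboxylate carrier Slc13a3 (1.24) and the glutathione transferase Gstm3 (1.17). At 4 weeks 2 fell, Cyp2c29 (-0.78) and the paraoxonase Pon1 (-0.41), and 1 rose, Slc13a3 (0.72).

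In MCD the same list split, 4 higher and 7 lower, with a median of -0.12. Cyp3a11 (2.58), the bile acid enzyme Cyp7a1 (2.33), Gstm3 (1.28) and Cyp2a5 (1.12) rose, and Cyp2c54 (-6.04, 65.9-fold lower, limma adjusted p = 3.66e-09), Rgn (-1.83) and Cyp2c50 (-1.78) led those that fell. The call of Cyp2a5 was lost under 10 of 16 alternatives. By total reads the split was 10 higher and 6 lower, and after quantile normalization 8 and 6. The Cyp2a, Cyp2c, Cyp3a, Gstm and Ugt1a genes have near-identical neighbours, among which the counting could divide reads, so their single values are uncertain.

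Periportal and urea cycle genes, the opposite pole of the lobule, were lower in MCD for 14 of 18 and higher for 1, with a median of -0.64. Otc (-1.96), Pigr (-1.69) and Cyp2f2 (-1.54) led those that fell and Aldh1b1 rose (1.1). By total reads 6 fell and 2 rose, so this count depends on scaling. In 10-week STAM 7 fell, led by Hal (-1.03), Nags (-0.89) and Otc (-0.74), and 4 rose: Aldh1b1 (1.24), G6pc (1.16), Fbp1 (0.61) and Pck1 (0.45). By total reads 6 rose and 5 fell there, and after quantile normalization 5 and 4. At 4 weeks Fbp1 (0.41) and Aldh1b1 (0.55) rose and Otc (-0.26) and Hal (-0.66) fell, these last calls being lost under 15 and 10 of 18 alternatives.

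Of the Wnt ligands and R-spondins, 2 of 11 rose in MCD, Rspo3 (0.57, limma adjusted p = 0.0159) and Wnt4 (1.19, limma adjusted p = 0.0229, lost under 7 of 16 alternatives). At 4 weeks Wnt9b, a ligand of central vein endothelium, rose by 1.21 (limma adjusted p = 0.0149) and Wnt4 fell (-1.02, limma adjusted p = 0.00694). At 10 weeks Wnt5a (0.84) and Wnt10a (2.02) were called higher. For Wnt10a the controls held 0 reads and STAM 5, at least 1.46-fold higher when the controls together are set to 3 reads, and its call was lost under 13 of 17 alternatives. By total reads 5 of 11 rose in MCD and 5 at 10 weeks, while none did after quantile normalization. Rspo2 and Rspo4 were below the filter in each table.

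Of the Wnt receptors, 5 of 16 fell in MCD, namely Fzd7 (-1.51), Fzd8 (-1.47), Ror1 (-1.44), Lgr4 (-0.8) and Lrp5 (-0.42), and Fzd6 rose (0.79). Lgr4 is, like Lgr5, an R-spondin receptor. At 4 weeks Fzd8 alone was called (-0.85), a call lost under 10 of 18 alternatives. At 10 weeks 4 of 15 rose, Fzd6 (0.66), Fzd1 (0.47), Lrp5 (0.34) and Ror2 (2.98, from 1 read over the controls to 16 over STAM), and 3 fell, Fzd7 (-0.59), Lgr4 (-0.32) and Fzd5 (-0.28). Fzd6 was thus called higher and Fzd7 and Lgr4 lower in both models, though by total reads the 10-week falls of Fzd7 and Lgr4 missed the threshold, and 6 receptors rose and none fell. By total reads Lrp5 in MCD (0.01) and Fzd5 at 10 weeks (0.01) turned sign.

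In the beta-catenin signal chain no gene of 18 was called at 4 weeks, and the counts in MCD (2 higher, 4 lower) and at 10 weeks (3 and 5) turned by total reads to 11 and 1 and to 8 and 1. In MCD Wls (0.54), which carries Wnt ligands to the cell surface, and Pygo1 (2.65, from 3 reads over CD to 21 over MCD) rose, and Tcf7l2 (-0.74), Tcf7l1 (-0.52), Pygo2 (-0.36) and Ctnnb1 itself (-0.26) fell. Ctnnb1, which encodes beta-catenin, turned to 0.17 by total reads and 0.26 after quantile normalization, and Pygo2 to 0.07 by total reads. The calls of Tcf7l1 and Pygo1 in MCD were lost under 10 of 16 and 7 of 15 alternatives. At 10 weeks Pygo1 (2.68), Btrc (0.53) and Wls (0.48) rose and Porcn (-0.97), Pygo2 (-0.38), Apc (-0.29), Dvl3 (-0.29) and Dvl1 (-0.25) fell. By total reads Apc (0.01), Dvl1 (0.04) and Dvl3 (0) no longer lay below 0.

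Among the Wnt inhibitors, Notum was called lower in all 3 comparisons. This secreted lipase inactivates Wnt ligands and is itself a Wnt target. It fell by 1.56 on the log2 scale in MCD (limma adjusted p = 0.00098), with CD at 4.91 to 5.2 and MCD at 2.6 to 4.07 log2 CPM, and in STAM the changes were -0.40 at 4 weeks (limma adjusted p = 0.0398) and -0.37 at 10 weeks (limma adjusted p = 0.0228). The STAM calls were lost under 11 and 7 of 18 alternatives. Of 14 inhibitors tested in MCD, Frzb (1.54), Znrf3 (0.92), the partner ligase of Rnf43, and Dkk3 (0.86) rose, and Wif1 (-3.89, limma adjusted p = 0.0015) fell with Notum.

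At 4 weeks Frzb was called higher (0.63), a call lost under 8 of 17 alternatives. At 10 weeks 5 of 16 inhibitors rose, namely Dkk2, Apcdd1 (2.68), Frzb (1.88), Dkk3 (1.47) and Kremen1 (0.51), and the list's median was 1.01, or 0.47 after quantile normalization. Dkk2 went from 0 reads over the 5 controls to 23 over the 5 STAM livers, at least 6.71-fold higher when the controls together are set to 3 reads. Of 7 other Wnt target genes, the cell-cycle gene Ccnd1 rose by 3.21 in MCD (4.59 to 6.06 log2 CPM in CD and 8.37 to 8.58 in MCD, limma adjusted p = 1.35e-05) and by 1.96 in 10-week STAM. Cd44, an adhesion receptor that leukocytes also carry, rose in all 3 comparisons (1.11, 0.94 and 1.15), and Tnfrsf19 rose in MCD (2.05) and at 10 weeks (0.91).

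In glutamine, glutamate and ornithine metabolism, the proline synthesis enzymes Pycr1 (3.92) and Aldh18a1 (2.83) and ornithine decarboxylase Odc1 (1.15) were among the genes that rose in MCD, and Prodh (-0.79) and Slc38a3 (-0.66) fell. At 10 weeks Got1 (1.9), Aldh18a1 (1.05) and Slc1a4 (0.91) rose and Odc1 (-0.69), Prodh (-0.65) and Glud1 (-0.54) fell, and at 4 weeks Slc38a5 (-1.95) alone was called. The calls of Slc38a5 and of Prodh at 10 weeks were lost under 10 of 17 and 10 of 18 alternatives. By total reads 7 of 15 rose and 0 fell in MCD, so the calls of Prodh and Slc38a3 there were lost. At 10 weeks 8 of 15 rose and 2 fell under that scaling. Odc1 thus moved in opposite directions in the 2 models.

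Cyp1a2 is also a target of the aryl hydrocarbon receptor, so other targets were listed beside it. Cyp1a1, its neighbour gene and a P450 of the same family, rose in MCD by 1.59 (0.38 to 1.29 log2 CPM in CD and 1.94 to 2.77 in MCD, limma adjusted p = 0.000207), where Cyp1a2 fell. In 10-week STAM it fell by 1.33 on the log2 scale (2.07 to 2.73 in controls and 0.36 to 1.72 in STAM, limma adjusted p = 0.000457), as did Cyp1a2. Nqo1 (1.33 and 1.04) and Cyp1b1 (1.11 and 2.52) rose and Ugt1a6a (-1.05 and -0.57) fell in both. Tiparp was called higher at 10 weeks (0.38), a call lost under 6 of 18 alternatives. None of 6 targets was called at 4 weeks.

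**Figure D5:**
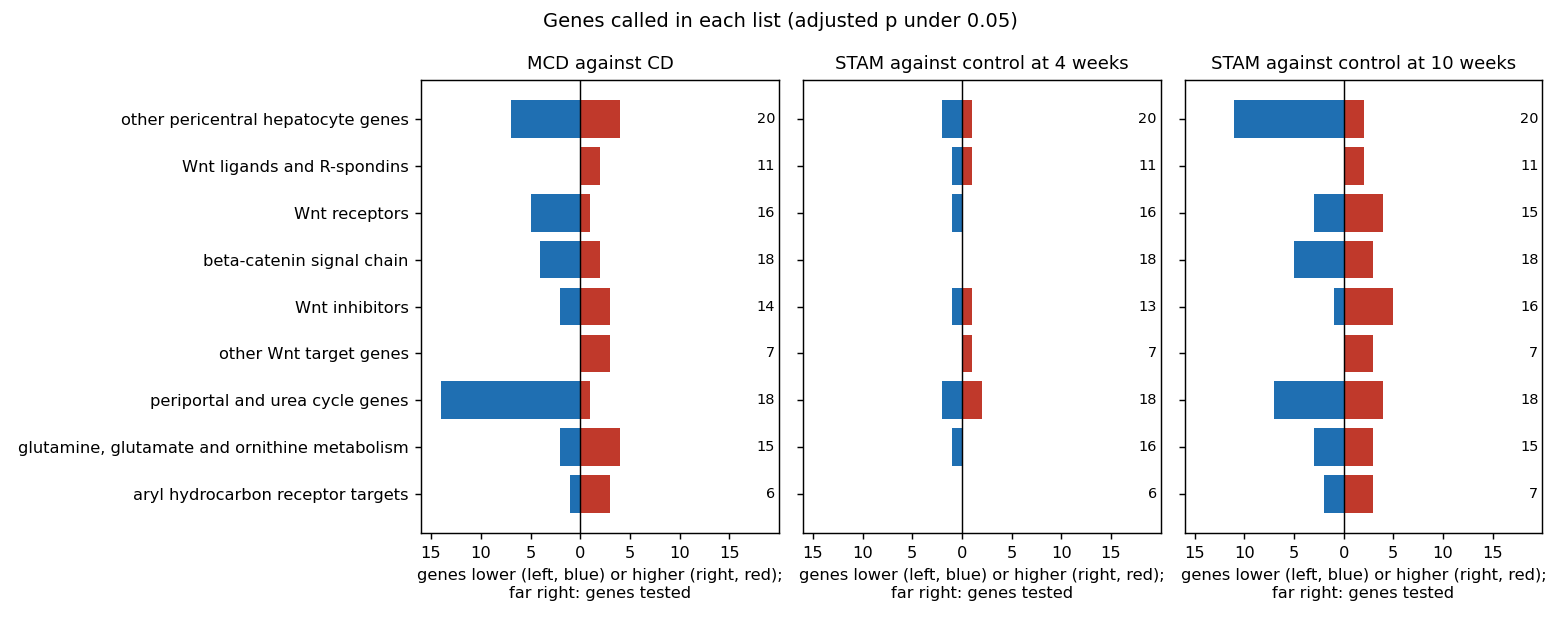
Number of genes called higher (right of 0) and lower (left of 0) in each of 9 gene lists in the 3 comparisons, with the number tested at the right. The bars for the other pericentral genes reach 11 lower in 10-week STAM and those for the periportal genes 14 lower in MCD.

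Markers of cell types were counted in the same comparisons. Over all genes tested 22.6% were called higher and 20.1% lower in MCD. These shares were 6.52% and 3.27% in STAM at 4 weeks and 25.3% and 22.5% at 10 weeks. Of 8 macrophage markers 5, 7 and 7 rose in MCD, STAM at 4 weeks and STAM at 10 weeks, and of 8 cholangiocyte markers 4, 5 and 6. After quantile normalization the cholangiocyte counts were 1, 4 and 2. Of 8 stellate cell markers 5, 1 and 5 rose and 1 fell in each. Of 5 neutrophil markers 3, 0 and 1 rose, and none of 7 lymphocyte markers was called. Sinusoidal endothelial cells, a source of Wnt ligands, had 2 and 3 of 8 markers lower in MCD and at 4 weeks, and 3 higher and 1 lower at 10 weeks. By total reads none was lower and 3 were higher in MCD. Their summed level was 389 to 403 CPM in CD and 328 to 397 in MCD, 420 to 506 and 346 to 422 at 4 weeks, and 329 to 494 and 413 to 509 at 10 weeks. Of 10 hepatocyte markers 6, 2 and 8 fell, or 4, 1 and 5 by total reads and 0, 1 and 3 after quantile normalization. In MCD 1 hepatocyte marker rose (Ahsg, 0.58), or 3 by total reads and 3 after quantile normalization. At 10 weeks 1 rose after quantile normalization. No marker was at 0 in all libraries of a group. The part of these cell types in the changes of the Wnt ligands, inhibitors and targets was not tested.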

How the data were processed

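The 3 deposited tables hold values of each library, headed by sample title and read here as log2 CPM. The labels do not name the authors' normalisation. That the values came from reads per gene with scaled library sizes and a small prior count was inferred from their steps. The tables also hold the authors' own comparisons, whose log2 fold changes and adjusted p-values were deposited beside the library values. Reads were aligned with STAR 2.4.2a to mm10, per the submitters' processing notes. The sources used here do not give the program that counted reads or its strand setting. All deposited values gave whole reads within 0.05 once a mean prior of 0.25 reads was removed, and scaling factors ran from 0.832 to 1.228.

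From these values limma 3.58.1 (R 4.3.3, statmod 1.5.0; trend and robust variances) was fitted per table to the 15312 genes above the 25th percentile of mean log2 CPM. Differences between effects came from 1 fit of 4 groups. The scripts were tested on simulated data. The 10 members and all lists were chosen with earlier results of these data known. Named are the members, up to 3 list genes per direction and comparison with the largest change among called genes without overlap, and the 5 genes most like each of Glul, Cyp2e1, Cyp1a2 and Axin2. Where a pathway list had 5 or fewer called genes in a direction the rest were named too, after their values were seen, except 1 that is not reported here. Alternatives were no filter, a filter at the 50th percentile, total-read scaling, quantile normalization, a prior of 2 reads, no trend or robust estimation, voom on the recovered reads, a replicate block and leaving out each library. Replicate numbers were shared between groups, but same-numbered libraries did not deviate together (r from -0.12 to 0.01), so no block was used. Gene starts are 1-based, promoters come from RefSeq (GRCm38.p6), and intervals are at 95%.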

Additional observations from a re-analysis of the deposited data

Results flagged for a closer look

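In 3 of the 60 pairs of a member and a group, 1 library lay far from the others of its group, and chance gives about 1 in 20. Rnf43 measured 4.13 log2 CPM in STAM replicate 1 at 4 weeks, beside 4.4 to 4.46 in the other 4. Tbx3 measured 5.33 in control replicate 1 at 4 weeks, beside 3.3 to 3.87. Rhbg measured 2.62 in STAM replicate 5 at 10 weeks, beside 3.29 to 3.47.

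A further 11 results stood out because the effect differed between 2 ages or models by the limma test of the difference (log2 scale). From 4 to 10 weeks the STAM effect differed by 0.56 for Glul, -1.92 for Cyp1a2, -1.32 for Lgr5 and -0.46 for Rnf43. The MCD effect minus that of 10-week STAM was -1.08 for Slc1a2, 0.92 for Cyp1a2, 1.47 for Lgr5 and 1.08 for Tbx3. Minus that of 4-week STAM it was -0.8 for Rhbg, 0.81 for Cyp2e1 and -1 for Cyp1a2. The cause of these differences was not tested, and the diets, ages and control groups differ between the experiments.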

How the results depend on the processing

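Of 60 results on the 10 members (a gene in a comparison or a difference of effects), 24 kept direction and side of the threshold under every alternative run, and of 153 results on list genes 99 kept their call. The number of members called in MCD, 4, became 1 without a filter, 7 by total reads and 1 without trend and robust estimation, and ran from 1 to 4 when 1 library was left out, being 1 without CD replicate 4. For the MCD effect minus that of 10-week STAM, 4 became 2 without a filter, 2 without trend and robust estimation and 2 with voom, and 2 to 4 when 1 library was left out. In 10-week STAM it went from 7 to 9 without STAM replicate 5.

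Signs turned in MCD for Glul (total reads 0.3, quantile 0.54), Cyp2e1 (0.41, 0.87), Rnf43 (0.39, 0) and Ctnnb1 (0.17, 0.26). They turned by total reads for Slc1a2 in 4-week STAM (0.03), Kdr (0.12), Colec11 (0), Lrp5 (0.01) and Pygo2 (0.07) in MCD, and Dvl1 (0.04), Dvl3 (0), Fzd5 (0.01) and Apc (0.01) in 10-week STAM. After quantile normalization they turned for Slc38a3 (0.01), Apoa1 (0.04) and Ttr (0.03) in MCD and Alb in STAM (0 at both ages). For the age difference of STAM, Oat gave 0.01 (total reads) and 0.02 (quantile) and Axin2 -0.08 (quantile) and -0.03 (voom). For MCD minus STAM, Oat gave 0.03 at 10 weeks and 0.05 at 4 weeks (quantile). The cause was not tested.

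When 1 library was left out, uncalled values crossed 0. In MCD they ran from -0.35 to 0.16 for Rnf43, -0.15 to 0.14 for Oat, -0.13 to 0.13 for Cyp2e1, -0.09 to 0.22 for Lgr5 and -0.29 to 0.07 for Glul. In 4-week STAM they ran from -0.1 to 0.04 for Slc1a2 and -0.24 to 0.1 for Lgr5, and for the age difference from -0.27 to 0.18 for Axin2. For MCD minus 4-week STAM they ran from -0.09 to 0.42 for Rnf43, -0.13 to 0.38 for Tbx3, -0.11 to 0.24 for Glul and -0.03 to 0.31 for Lgr5.

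With the replicate block, 848 genes were called in 4-week STAM in place of 1500. The block removed the calls of Slc1a2 in MCD (adjusted p = 0.0602 in limma) and of Rnf43 for the age difference (0.0618), though the numbers gave no sign of pairing. Without STAM replicate 1, 982 genes were called at 4 weeks. Depth limits Wnt10a, Dkk2, Ror2 and, in MCD, Pygo1, with 0 to 3 reads over all controls. Levels were also low for Apcdd1 (-3.65 log2 CPM) and Pygo1 (-3.72) in 10-week controls and Pycr1 in CD (-3.32). The same held for Wif1 in MCD (-2.47) and Slc38a5 in 4-week STAM (-3.27), so the size of these changes is uncertain. Quantile normalization removed the calls of Apcdd1 and Pygo1 at 10 weeks.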
